A study of Homo sapiens with 6 samples.

Results

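The genes described here are 9 genes of the antioxidant response that is governed by the transcription factor NRF2: HMOX1, NQO1, GCLC, GCLM, SLC7A11, TXNRD1, SRXN1, NFE2L2 and KEAP1. Each was found by its symbol as a single row of the deposited table, which holds 57905 genes, and all 9 passed the filter on low counts that left 15343 genes for testing. The set was chosen from these same libraries, with the differences between INO80 siRNA and control siRNA already known, so the members' differences are a description: no p-value is given for a member, and counts of called members stand only beside the share of all genes called. The cells were HK-2 (Human Kidney-2), an immortalized line of human renal proximal tubular cells, and the study asked which genes depend on INO80, the ATPase of a chromatin remodeling complex. The control siRNA group holds 3 libraries, labelled WT, from cells given a non-targeting siRNA pool, and the INO80 siRNA group holds 3 libraries, labelled knockdown, from cells given a pool against INO80. All were transfected with RNAiMAX and harvested after 48 h, and mRNA was sequenced after poly-A selection. The groups thus model a partial and short loss of the transcript in a single cell line. Nothing in the labels says that the libraries of a group came from separate cultures, so the p-values measure the spread between these libraries, which may be technical.

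NRF2, the protein of NFE2L2, is bound in resting cells by KEAP1, which presents it to a CUL3 ubiquitin ligase for destruction. Oxidants and electrophiles modify cysteines of KEAP1, NRF2 then escapes, enters the nucleus, pairs with small MAF proteins and binds antioxidant response elements near its targets. The targets make glutathione (GCLC, GCLM), import cystine for it (SLC7A11), recycle thioredoxin and peroxiredoxins (TXNRD1, SRXN1), reduce quinones (NQO1) and break down heme (HMOX1). HMOX1 is also held down by the heme-sensitive repressor BACH1, and proximal tubules are known for inducing it when heme or oxidants reach them.

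The core of the antioxidant response element, TGACNNNGC, was searched on both strands in the RefSeq promoters, which run from 250 bases before to 50 bases after each listed start (GRCh38.p14). Of the members, 7 had entries, 10 promoters in all because TXNRD1, NFE2L2 and KEAP1 each have 2 listed starts, and HMOX1 and SLC7A11 had none. A match was found in 4 of the 10 member promoters, which belong to 3 of the 7 members, and in 13.3% of all 35116 promoters. The AP-1 site TGANTCA, which shares the TGA start of the element, was in 0 of the 10 member promoters and in 7.71% of all promoters. The matches that lie wholly before a start are shown with 10 bases on either side, in the gene's own direction. They show where the letters of the core occur in these member promoters. The capitals mark the core, which reads from its complement where it begins with GC.
GCLM, chr1:93909446-93909474, minus strand: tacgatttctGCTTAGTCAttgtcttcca
TXNRD1, upstream start, chr12:104215670-104215698, plus strand: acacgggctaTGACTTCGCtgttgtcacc
TXNRD1, downstream start, chr12:104286920-104286948, plus strand: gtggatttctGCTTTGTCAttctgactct
KEAP1, downstream start, chr19:10502784-10502835, minus strand: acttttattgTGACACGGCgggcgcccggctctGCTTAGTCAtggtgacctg
These cores began 34 bases before the start for GCLM, 99 and 102 bases before the 2 starts of TXNRD1, and 54 and 31 bases before the downstream start of KEAP1. A further match for TXNRD1 began 8 bases before its upstream start and ran across it. A match describes letters and is no evidence of binding. Elements outside the searched bases would be missed, so a promoter without a match does not show that its gene lacks the element.

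The libraries held between 16829273 and 20311588 counted reads under control siRNA and between 20678008 and 23784599 under INO80 siRNA. Mitochondrial genes took 1.62% to 2.36% of the reads under control siRNA and 1.77% to 2.63% under INO80 siRNA. Levels are given as counts scaled to library size (CPM) on TMM-normalized library sizes, and levels of different genes are compared only as FPKM, which divides by exonic length. INO80 itself was at 49.9 ± 3.89 CPM (SD, n = 3) under control siRNA and 13.3 ± 1.12 CPM (SD, n = 3) under INO80 siRNA, so the libraries matched their labels. Of 10 markers of proximal tubules, only 2 had a mean of at least 1 FPKM, HNF4A had 0 reads in every library, and LRP2 had 1 read in a single library. The summed proximal tubule level was 77.2 to 80.7 FPKM under control siRNA and 77.0 to 80.9 FPKM under INO80 siRNA. Nearly all of it came from PAX8 (means 40.9 and 38.1 FPKM, in that order) and GGT1 (37.7 and 40.6 FPKM). Within all 3 replicate numbers PAX8 was lower and GGT1 higher in CPM under INO80 siRNA, with overlapping groups. The sum thus says little of the other markers. General epithelial markers summed to 386 to 419 FPKM and 346 to 420 FPKM in the same order, 5 of 6 with at least 1 FPKM. For fibroblasts 1 of 5 markers reached that level, with sums of 4.37 to 4.83 and 5.10 to 6.33 FPKM, and the podocyte markers were at 0. The sums of 3 endothelial and 4 distal nephron markers stayed at or below 0.03 FPKM, with 0 reads for KDR, UMOD, SLC12A1 and AQP2 and 1 read in all for VWF. The 4 leukocyte markers summed to 0.25 to 0.51 and 0.41 to 0.63 FPKM, with PTPRC and CD3E at 0. In bulk RNA, fewer cells that express a gene and less RNA per cell cannot be told apart.

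HMOX1 (ENSG00000100292, chromosome 22, 35776354 to 35790207 in GRCh37 coordinates), the inducible oxygenase that opens the heme ring, was lower under INO80 siRNA. Control siRNA replicates 1, 2 and 3 had 91.7, 107.1 and 86.1 CPM, and INO80 siRNA replicates 1, 2 and 3 had 64.9, 71.1 and 66.0 CPM. Every INO80 siRNA library lay below every control siRNA library, and replicate 2 was the highest in both groups. The means were 94.96 ± 10.9 and 67.3 ± 3.34 CPM (SD, n = 3 each), so the level under INO80 siRNA was 0.709 times that under control siRNA. Between libraries of the same number the ratio was 0.708, 0.664 and 0.766. The log2 fold change was -0.50 (SE 0.0878) in edgeR's fit with the treatment alone and -0.49 (SE 0.0470) with the replicate number as a block. It rests on 1304 to 2188 reads per library. Leaving out any 1 of the 6 libraries gave values from -0.57 to -0.40.

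SLC7A11 (ENSG00000151012, chromosome 4, 139085251 to 139163503), the light chain of the cystine and glutamate exchanger, had the largest difference among the members. It was at 81.1, 57.2 and 49.1 CPM in control siRNA replicates 1, 2 and 3, and at 43.2, 35.9 and 23.98 CPM in INO80 siRNA replicates 1, 2 and 3. The groups did not overlap, although replicate 1 was the highest and replicate 3 the lowest in both. The means were 62.5 ± 16.7 and 34.4 ± 9.71 CPM (SD, n = 3 each), a ratio of 0.550, and the ratios between libraries of the same number were 0.533, 0.629 and 0.489. The log2 fold change was -0.86 with an SE of 0.233 without the block and 0.0606 with it. The 95% interval ran from -1.39 to -0.33 without the block and from -0.99 to -0.74 with it. SLC3A2, the heavy chain that carries SLC7A11 to the membrane, was at 96.0 ± 2.87 and 99.6 ± 10.1 CPM (SD, n = 3 each), with an adjusted p of 0.796 (edgeR).

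**Figure D1:**
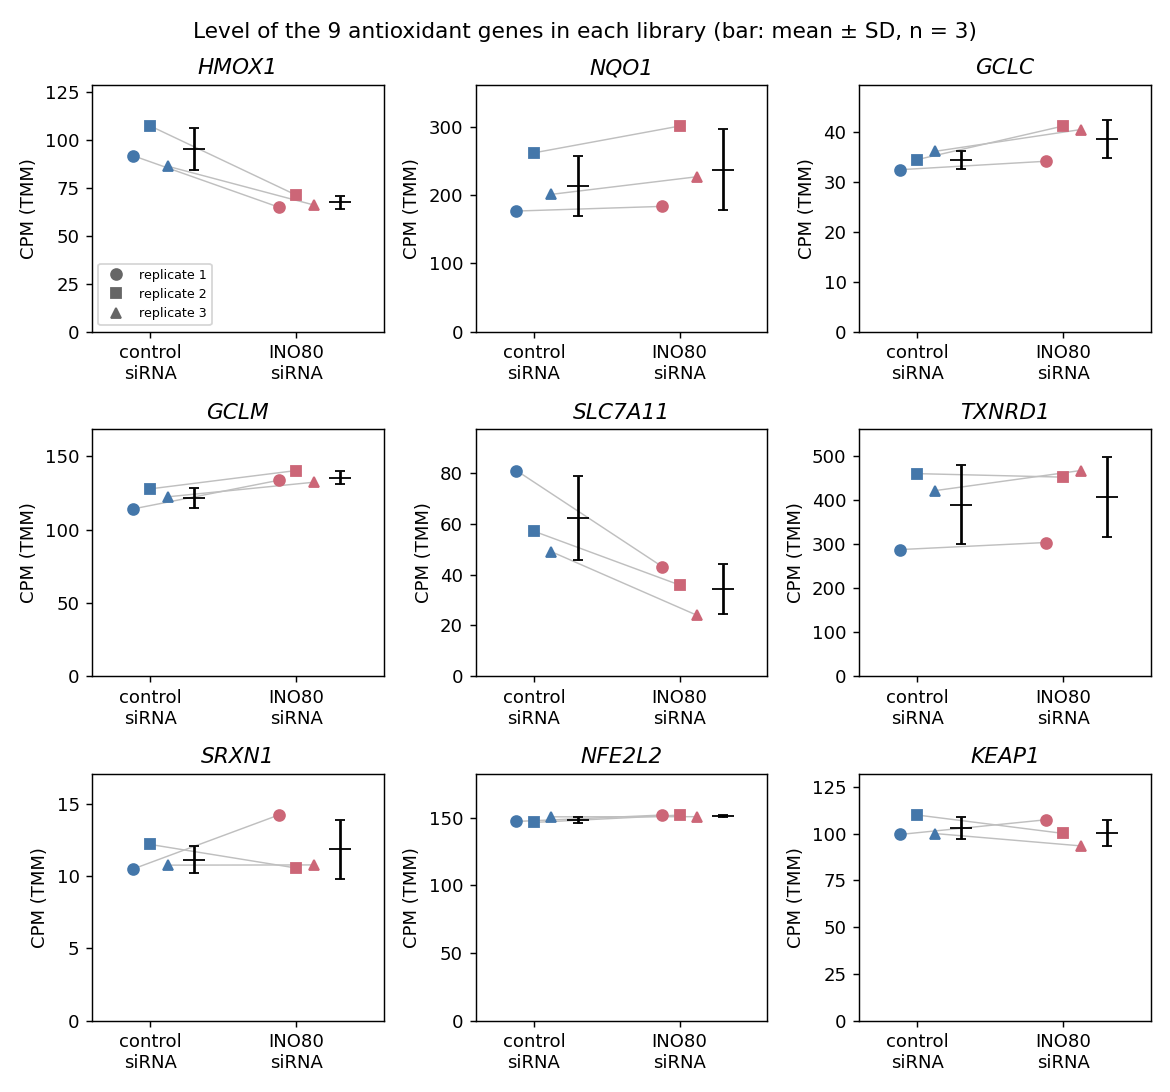
Level of each of the 9 genes in CPM (vertical axes from 0) in the 3 control siRNA (blue) and 3 INO80 siRNA (red) libraries; symbols give the replicate number, grey lines join libraries of the same number, and black bars are mean ± SD. HMOX1 and SLC7A11 are lower in all 3 INO80 siRNA libraries, while NQO1 and TXNRD1 differ more between replicate numbers than between treatments.

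Both subunits of glutamate-cysteine ligase, the enzyme that starts glutathione synthesis, were higher on average. GCLM (ENSG00000023909, chromosome 1, 94350761 to 94374966), the modifier subunit, was at 114, 128 and 122 CPM in control siRNA replicates 1, 2 and 3 and at 134, 140 and 132 CPM in INO80 siRNA replicates 1, 2 and 3. All INO80 siRNA libraries were above all control siRNA libraries, by a narrow margin. The means were 121 ± 6.90 and 135 ± 4.28 CPM (SD, n = 3 each), a ratio of 1.12 and a log2 fold change of 0.16 (SE 0.0623 without the block, 0.0400 with it).
GCLC (ENSG00000001084, chromosome 6, 53362139 to 53481768), the catalytic subunit, was at 32.4, 34.4 and 36.1 CPM and at 34.1, 41.1 and 40.4 CPM in the same order. It was higher under INO80 siRNA within each of the 3 numbers, but INO80 siRNA replicate 1 lay within the control range. Its log2 fold change was 0.17 (SE 0.0909 without the block, 0.0597 with it).
The modifier subunit was the more abundant transcript per length in every library. The ratio of GCLM to GCLC in FPKM was 5.54, 5.85 and 5.34 in control siRNA replicates 1, 2 and 3 and 6.18, 5.37 and 5.16 in INO80 siRNA replicates 1, 2 and 3, so the groups overlapped. GSS, glutathione synthetase, which completes the synthesis and was looked at after its values were seen, had ratios of 0.889, 0.943 and 0.954 within numbers (log2 fold change -0.11, adjusted p = 0.472, edgeR).

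NQO1 (ENSG00000181019, chromosome 16, 69740899 to 69760854), which reduces quinones with NAD(P)H, followed the replicate number far more than the treatment. It was at 176, 262 and 201 CPM in control siRNA replicates 1, 2 and 3 and at 183, 301 and 227 CPM in INO80 siRNA replicates 1, 2 and 3. The groups overlapped, with replicate 2 highest and replicate 1 lowest in both. Within numbers the ratio was 1.04, 1.15 and 1.13, and the log2 fold change was 0.15 with an SE of 0.190 without the block and 0.0370 with it.

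TXNRD1 (ENSG00000198431, chromosome 12, 104609557 to 104744061), the cytosolic selenoprotein that reduces thioredoxin, was at 288, 460 and 421 CPM in control siRNA replicates 1, 2 and 3 and at 304, 452 and 467 CPM in INO80 siRNA replicates 1, 2 and 3. Replicate 1 was low in both groups, and the groups overlapped. Its log2 fold change was 0.06 (95% interval -0.39 to 0.52) without the block and 0.07 (95% interval -0.01 to 0.14) with it. The pseudogene RPL18AP3 and the gene EID3 lie within its span on the same strand, with means of 874.5 and 31.3 counts per library beside 8434.5 for TXNRD1, so some reads may be shared.
SRXN1 (ENSG00000271303, chromosome 20, 627259 to 634014), which restores overoxidized peroxiredoxins, was the least counted member, with 172 to 286 reads per library. It was at 10.5, 12.2 and 10.8 CPM in control siRNA replicates 1, 2 and 3 and at 14.2, 10.6 and 10.8 CPM in INO80 siRNA replicates 1, 2 and 3. INO80 siRNA replicate 1 stood above the other 5 libraries, which did not separate by treatment. The log2 fold change was 0.08 (95% interval -0.25 to 0.42).

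The transcripts of NRF2 and its inhibitor were nearly level. NFE2L2 (ENSG00000116044, chromosome 2, 178092323 to 178257425) was at 147.2, 146.5 and 150.6 CPM in control siRNA replicates 1, 2 and 3 and at 152.0, 151.9 and 150.7 CPM in INO80 siRNA replicates 1, 2 and 3. The groups did not overlap, yet the nearest libraries were almost equal and the ratio of the means was only 1.02. The log2 fold change was 0.03 (95% interval -0.08 to 0.15 without the block, -0.04 to 0.11 with it). AGPS, on the opposite strand, overlaps its span with a mean of 3632 counts per library beside 3116 for NFE2L2, and whether counting used the strand is not given in the sources used here.
KEAP1 (ENSG00000079999, chromosome 19, 10596796 to 10614417) was at 99.6, 110.0 and 100.1 CPM in control siRNA replicates 1, 2 and 3 and at 107.4, 100.2 and 93.5 CPM in INO80 siRNA replicates 1, 2 and 3. The groups overlapped, with INO80 siRNA lower in 2 of the 3 numbers. The log2 fold change was -0.04 (95% interval -0.21 to 0.12). Transcript levels say nothing of the NRF2 protein, on which KEAP1 acts.

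**Figure D2:**
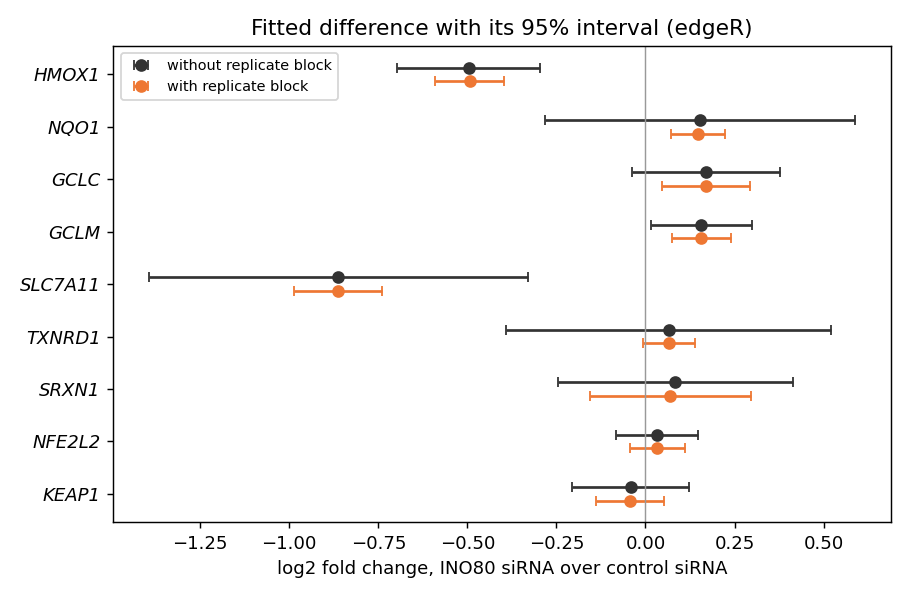
Log2 fold change of each gene (horizontal axis; INO80 siRNA over control siRNA) with its 95% interval from edgeR, without (black) and with (orange) the replicate number as a block, 3 libraries per group. HMOX1 and SLC7A11 lie below 0 in both fits, and the intervals of TXNRD1, SRXN1, NFE2L2 and KEAP1 include 0 in both.

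The fitted log2 fold changes of the 9 genes without the block ran from -0.86 (SLC7A11) to 0.17 (GCLC). In CPM, 2 of them (HMOX1, SLC7A11) were lower without overlap between the groups, where 11.5% of all tested genes were, and 2 (GCLM, NFE2L2) were higher without overlap, where 11.3% of all were. By an adjusted p under 0.05 in edgeR without the block, 1 member (HMOX1) was called lower, beside 1.49% of all tested genes. In the same fit 0 were called higher, beside 0.261% of all. An unadjusted p under 0.05 was found for 3 members and for 2514 of all 15343 tested genes. With the block, 2 (HMOX1, SLC7A11) were called lower beside 13.4% of all, and 3 (NQO1, GCLC, GCLM) were called higher beside 11.4% of all. Nothing is read from these counts, since the members were chosen with this contrast known. Without the block, 0 members were called when any 1 of the 6 libraries was left out. In those fits 2 to 4 members had an unadjusted p under 0.05. The share of all tested genes at that p was not computed there, so nothing is read from that count. Calls over all tested genes also fell there, from 268 to between 18 and 146. Unblocked fits without both libraries of a number were added after seeing the data. The fit without number 1 called 2 members (HMOX1, SLC7A11), beside 528 of all tested genes. The fits without number 2 and without number 3 called 0 members, beside 2 of all tested genes each. DESeq2 called 1 member and limma on log2 FPKM called 0, beside 637 and 76 to 80 of all tested genes. The median log2 fold change was 0.06 over the members and 0.01 over all tested genes.

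Under control siRNA the order of levels per length was NQO1, TXNRD1, HMOX1, KEAP1, NFE2L2, GCLM, SLC7A11, SRXN1 and GCLC. NQO1 had 65.3 ± 14.3 FPKM and TXNRD1 58.2 ± 14.4 FPKM (SD, n = 3 each), and their ranges overlapped, with NQO1 above in 2 of the 3 libraries. HMOX1 followed at 39.3 ± 4.77 FPKM (SD, n = 3), a level above 92.4% of tested genes, and its range overlapped that of TXNRD1 because of replicate 1. KEAP1, NFE2L2 and GCLM formed a middle tier at 27.3 ± 1.87, 25.0 ± 0.695 and 22.5 ± 1.65 FPKM (SD, n = 3 each), with no overlap between neighbours. SLC7A11 was at 6.42 ± 1.59 FPKM, and SRXN1 (4.11 ± 0.386 FPKM) and GCLC (4.04 ± 0.284 FPKM; SD, n = 3 each) could not be separated. Under INO80 siRNA SLC7A11 was at 3.56 ± 0.936 FPKM (SD, n = 3), which put its mean below those of SRXN1 (4.39 ± 0.640 FPKM) and GCLC (4.57 ± 0.573 FPKM). Its range overlapped both of theirs, and it was above GCLC in replicate 1 (4.36 and 3.91 FPKM).

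**Figure D3:**
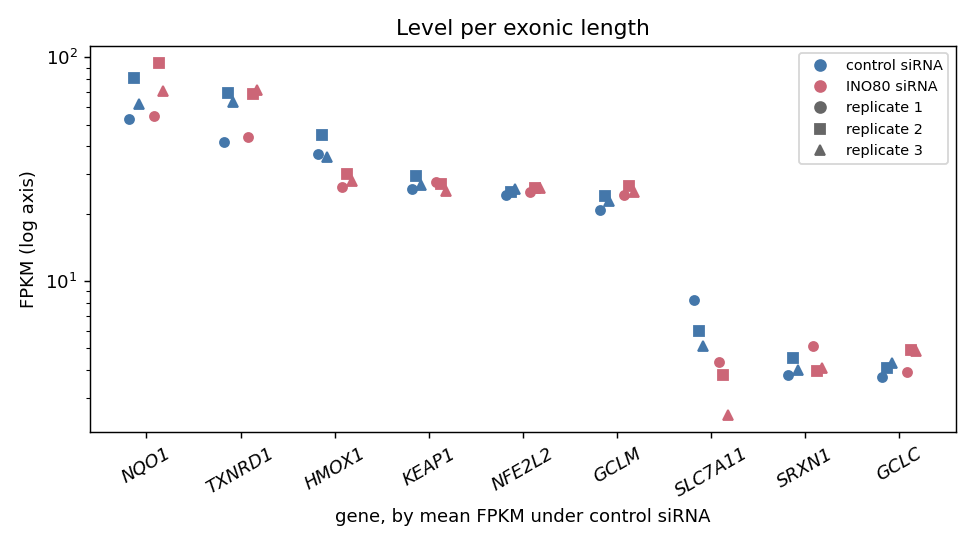
FPKM of each gene (log axis) in the 6 libraries, with genes ordered by their mean under control siRNA; colour gives the treatment and symbol the replicate number. NQO1 and TXNRD1 lead and overlap, and SLC7A11 drops among the lowest genes under INO80 siRNA.

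How far the replicate number and the treatment each accounted for the spread of log2 CPM over the 6 libraries differed between members. The replicate number held 97.2% of the sum of squares for TXNRD1 and 91.9% for NQO1, against a median of 48.3% over all tested genes. The treatment held 85.3% for HMOX1, 68.0% for GCLM, 63.5% for SLC7A11 and 62.1% for NFE2L2, against a median of 21.5%. But the treatment difference is what the members were chosen on. The share does not give the size of a difference, since the log2 fold change of NFE2L2 was 0.03. For SRXN1 71.8% lay in neither.
For several members replicate 1 was the lowest or the highest library of both groups. TXNRD1 was lower there than the mean of replicates 2 and 3 by a log2 difference of -0.61 under control siRNA and -0.60 under INO80 siRNA, and NQO1 by -0.38 and -0.51. SLC7A11 was higher there, by 0.61 and 0.56. HMOX1 differed little, by -0.07 and -0.08. SRXN1 had opposite signs, -0.13 and 0.41. Replicates 2 and 3 were not always alike. In CPM, NQO1 replicate 3 lay nearer to replicate 1 than to replicate 2 in both groups. Under INO80 siRNA, SLC7A11 replicate 2 lay nearer to replicate 1 than to replicate 3. What makes the replicate numbers differ is not in the labels, and its part in these levels was not tested.

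**Figure D4:**
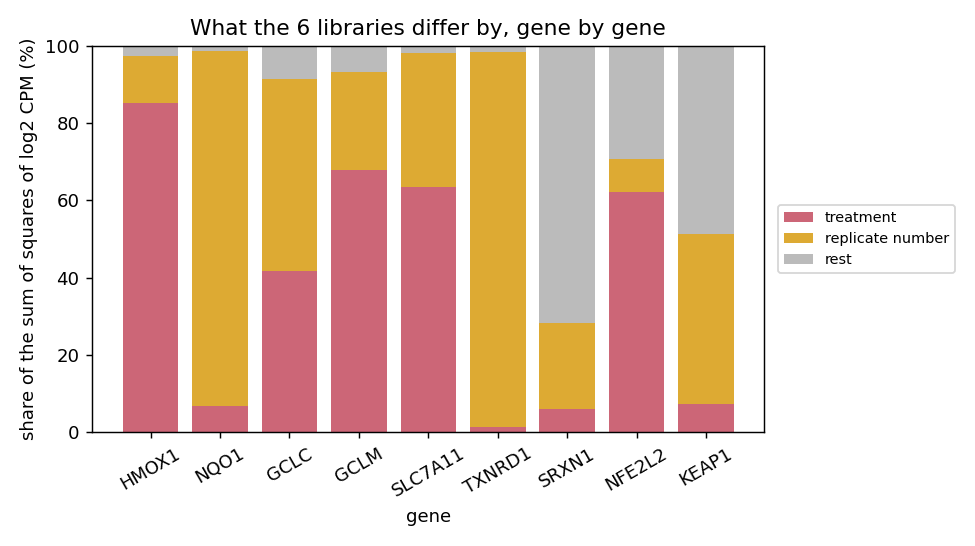
Share of the sum of squares of log2 CPM (vertical axis, %) over the 6 libraries that lies between treatments (red), between replicate numbers (yellow) and in the rest (grey), for each gene. Replicate number takes most of NQO1 and TXNRD1, and treatment most of HMOX1.

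The tested genes whose log2 CPM was most like that of HMOX1 over the 6 libraries were YAP1, TMEM70, TAF4, RAD9B and IFFO1, with Pearson's r between 0.989 and 0.994. YAP1, the transcriptional coactivator of the Hippo pathway, was at 110.9, 120.5 and 108.8 CPM in control siRNA replicates 1, 2 and 3 and at 90.4, 94.2 and 88.9 CPM in INO80 siRNA replicates 1, 2 and 3. Its libraries kept the pattern of HMOX1, lower in all INO80 siRNA libraries and highest in replicate 2. With 6 libraries that share treatment and replicate number such likeness is common, and 440 of 15342 genes had an r over 0.9. Among the members, r with HMOX1 was 0.75 for SLC7A11, 0.43 for KEAP1, 0.06 for TXNRD1, 0.05 for NQO1, -0.19 for SRXN1, -0.55 for GCLC, -0.62 for GCLM and -0.89 for NFE2L2.

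Around the members, 102 further genes of antioxidant defence and the heat shock response were listed, of which 97 were tested. GPX2, GSTM2, GSTM4, AKR1C1 and AKR1C2 were under the count filter. Without the block 1 of the 97 fell and 0 rose in edgeR, beside 1.49% and 0.261% of all tested genes. An unadjusted p under 0.05 was found for 12 of the 97, beside 2514 of all 15343 tested genes. DESeq2 called 4 of the 97 and limma 0. With the block 13 fell and 22 rose, where 13.4% and 11.4% of all tested genes did, which is also the background for the counts by list that follow. Their median log2 fold change was 0.05. The gene that fell in both fits was GPX8, a peroxidase of the endoplasmic reticulum. It was at 49.4, 45.3 and 47.6 CPM in control siRNA replicates 1, 2 and 3 and at 33.5, 33.7 and 36.7 CPM in INO80 siRNA replicates 1, 2 and 3. The groups were clearly apart, with a log2 fold change of -0.45 (SE 0.0712, adjusted p = 0.0264, or 1.46e-06 with the block, edgeR). Without the block this call was lost when any of the 6 libraries was left out.

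In the handling of heme and iron, 0 of 12 tested genes were called without the block, and with it 2 fell and 3 rose. SLC48A1, which carries heme out of endosomes and lysosomes, was at 72.3, 66.1 and 46.7 CPM in control siRNA replicates 1, 2 and 3 and at 46.6, 42.4 and 31.7 CPM in INO80 siRNA replicates 1, 2 and 3. The groups met without overlapping, since control replicate 3 was almost level with INO80 replicate 1. Its log2 fold change was -0.62 (SE 0.181, adjusted p = 0.139), with an adjusted p of 1.65e-09 under the block (edgeR). FTL, the light chain of the iron store ferritin and the most abundant of these genes, rose with the block (log2 fold change 0.23, adjusted p = 1.45e-06, edgeR), as did POR, which passes electrons to heme oxygenase (0.29, adjusted p = 0.000136, edgeR). BLVRB, a biliverdin reductase, rose with the block by a log2 fold change of 0.38 (adjusted p = 0.00512, edgeR). Without the block the adjusted p of FTL, POR and BLVRB was 0.248, 0.301 and 0.478 (edgeR).

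In glutathione synthesis, recycling and conjugation, GPX8 was the only one of 18 tested genes called without the block, and with it 5 fell and 3 rose. MGST1, a membrane-bound glutathione transferase, fell with the block by 0.32 on the log2 scale (adjusted p = 1.44e-06, edgeR). GSR, which regenerates reduced glutathione, fell by 0.26 (adjusted p = 0.000266), and the transferase GSTK1 rose by 0.19 (adjusted p = 0.00324, edgeR with the block). None of these 3 passed without it, with adjusted p of 0.226, 0.495 and 0.355 (edgeR). GSTP1, the most abundant, was at 487 ± 18.8 and 499.7 ± 6.41 CPM (SD, n = 3 each; adjusted p = 0.800, edgeR).
Among 14 genes of the thioredoxin and peroxiredoxin systems, 0 were called without the block, and with it 2 fell and 1 rose. TXNRD2, the mitochondrial counterpart of TXNRD1, was at 29.5 ± 0.628 CPM and 23.1 ± 1.66 CPM (SD, n = 3 each) without overlap, a log2 fold change of -0.35 (adjusted p = 0.0772, or 0.000363 with the block, edgeR). SESN2 fell by 0.17 and TXNIP, which binds thioredoxin, rose by 0.18 with the block (adjusted p = 0.0159 and 0.000465, edgeR). Their adjusted p without it was 0.539 and 0.391 (edgeR). PRDX1, the most abundant, was at 809 ± 22.6 and 849 ± 27.3 CPM (SD, n = 3 each; adjusted p = 0.588, edgeR).

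Of 6 tested enzymes that supply NADPH to these systems, 0 were called without the block and 4 rose with it. Among these, TKT, an enzyme of the pentose phosphate pathway, rose by a log2 fold change of 0.16 (adjusted p = 0.000416), the malic enzyme ME1 by 0.16 (adjusted p = 0.00695) and IDH1 by 0.13 (adjusted p = 0.0370, edgeR with the block). Without it the adjusted p of TKT, ME1 and IDH1 lay between 0.284 and 0.629 (edgeR).
Among 4 genes that remove superoxide and hydrogen peroxide, 0 were called without the block. SOD2, the mitochondrial superoxide dismutase, was at 298 ± 36.1 CPM and 372 ± 27.3 CPM (SD, n = 3 each) without overlap and rose with the block (log2 fold change 0.33, adjusted p = 2.79e-07, or 0.143 without it, edgeR). CAT, catalase, fell with the block by 0.29 on the log2 scale (adjusted p = 0.00678, or 0.270 without it, edgeR).

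Genes of quinone and carbonyl reduction and of export split. Of 17 tested, 0 were called without the block, and with it 3 fell and 4 rose. AKR1B10, an aldo-keto reductase, had the largest log2 fold change of any listed gene, 1.28 (SE 0.583), but only at 0.976, 2.59 and 1.71 CPM in control siRNA replicates 1, 2 and 3 and 1.44, 8.03 and 3.47 CPM in INO80 siRNA replicates 1, 2 and 3. The groups overlapped, and its adjusted p was 0.324 without the block and 8.62e-05 with it (edgeR). The exporter ABCC3 rose with the block by a log2 fold change of 0.30 (adjusted p = 0.000388, or 0.456 without it, edgeR). PTGR1 fell by 0.22 (adjusted p = 0.00101, or 0.186 without it) and TRIM16L by 0.21 (adjusted p = 0.00249, or 0.417 without it, edgeR with the block). TRIM16L is related to TRIM16, and whether reads of these genes were mixed or lost was not tested. EPHX1, the most abundant gene of this list, was at 100.1 ± 8.97 and 98.4 ± 10.1 CPM (SD, n = 3 each; adjusted p = 0.929, edgeR).
Of the 13 further regulators and partners of NRF2, 0 were called without the block and 2 rose with it. MAFG, a small MAF partner, was at 80.6 ± 1.45 and 91.2 ± 4.15 CPM (SD, n = 3 each) without overlap (log2 fold change 0.18, adjusted p = 0.178, or 0.00341 with the block, edgeR). SQSTM1, the autophagy receptor that binds KEAP1, rose with the block by a log2 fold change of 0.11 (adjusted p = 0.0176, or 0.610 without it, edgeR).
Of 12 heat shock genes 0 were called without the block and 4 rose with it, DNAJA1, HSPD1, HSPE1 and DNAJB1, by log2 fold changes of 0.11 to 0.15 (adjusted p between 0.00174 and 0.0181, edgeR with the block). Without it their adjusted p lay between 0.307 and 0.740 (edgeR). HSP90AA1, the most abundant, was at 2576 ± 243 and 2587 ± 158 CPM (SD, n = 3 each; adjusted p = 0.985, edgeR).

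**Figure D5:**
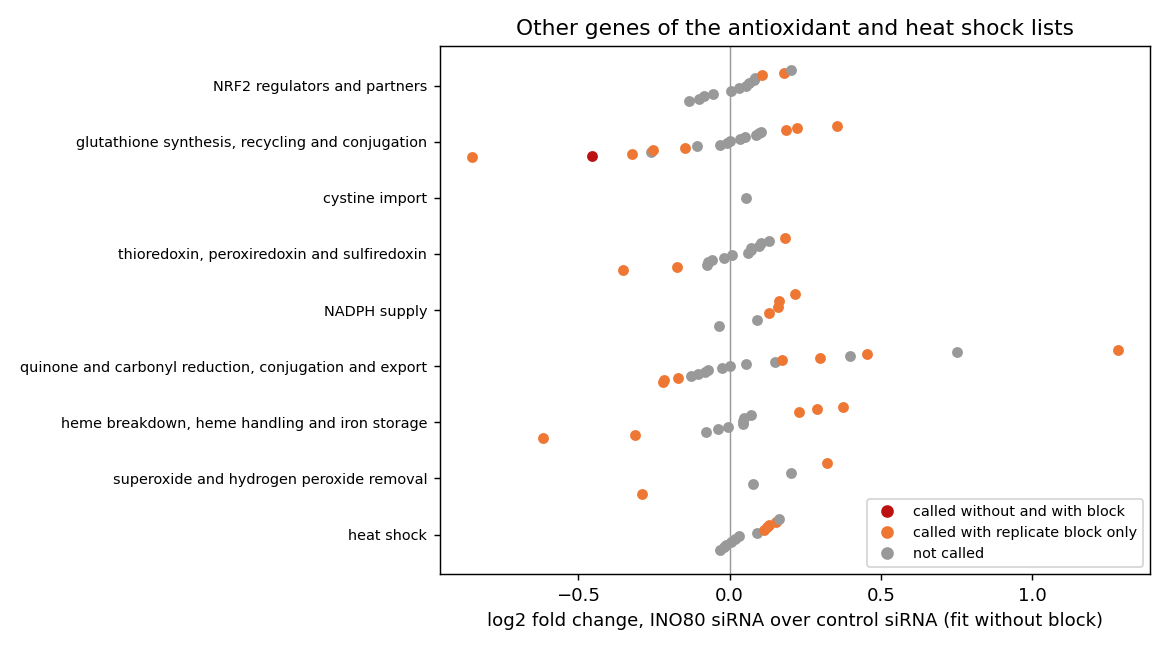
Log2 fold change (horizontal axis; INO80 siRNA over control siRNA, edgeR without the block) of the 97 tested genes that are no members, one row per list. Dark red marks GPX8, called in both fits, orange the genes called only with the replicate number as a block, and grey those not called.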

How the data were processed

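RNA-seq of 6 HK-2 libraries was analysed, 3 per treatment. The deposited table gives raw counts per gene, which the authors left unnormalized, and FPKM, which the authors computed from count, exonic length and library total: all 347430 values were recomputed within 0.01. The submitters' processing notes name HISAT2 2.0.1, HTSeq and hg19, while the paper's methods name ELAND and hg38; the coordinates are GRCh37. The members and gene lists were chosen with earlier results of these data known.

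Counts were compared with edgeR 4.0.16 in R 4.3.3 (filterByExpr, TMM, quasi-likelihood test, treatment as the term). P-values were adjusted over all tested genes by the Benjamini-Hochberg method, and a gene was called at an adjusted p under 0.05. The replicate number was added as a block in an alternative fit. Deviations from group means correlated across genes by 0.581, 0.365 and 0.360 between libraries of numbers 1, 2 and 3, so the numbers were taken to pair the libraries. Between unlike numbers they correlated by 0.129 and 0.152 for numbers 2 and 3, and by -0.397 to -0.361 where number 1 was involved. The labels name no pairing, so it was inferred from these same data. Other alternatives were RLE size factors, no filter, DESeq2 1.42.0, limma 3.58.1 on log2(FPKM + 0.1) or log2(FPKM + 1), and each library left out. Fits without both libraries of a number were added after seeing the data. Named genes were the members, INO80, the genes called without the block, the gene with the highest mean CPM in each list, up to 4 per list with the smallest p among those called with the block, and the 5 most like HMOX1. The fit was tested on simulated data, but only for differences larger than those of the members, so differences of their size were not covered. A count of 0 would allow up to 3 reads, for counting error only. Single genes that the rule names but that are withheld are not reported here.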

Additional observations from a re-analysis of the deposited data

How the results depend on the processing

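Over all tested genes, the 97 listed genes and the 9 members, the calls depended most on the replicate block: 268, 1 and 1 without it became 3798, 35 and 5 with it. Without a filter on low counts they were 708, 6 and 2, by DESeq2 637, 4 and 1, by limma 76, 0 and 0 with a pseudocount of 0.1 and 80, 0 and 0 with a pseudocount of 1, where 11 listed genes and 3 members had an unadjusted p under 0.05. RLE size factors gave 280, 1 and 1. Lower and higher calls over all genes split as 228 and 40 without the block, 2050 and 1748 with it, 516 and 192 without the filter, and 503 and 134 by DESeq2. Leaving out 1 library without the block gave 18 (without control siRNA replicate 3) to 146 (without INO80 siRNA replicate 1) calls over all genes, and 0 among listed genes and members, with 8 to 19 and 2 to 4 at an unadjusted p under 0.05. In fits added after seeing the data, leaving out both libraries of number 1 gave 528, 2 and 2 calls, and 3978, 43 and 6 with the block. Without number 2 they were 2, 0 and 0, and 2623, 26 and 3 with the block, and without number 3 they were 2, 0 and 0, and 2251, 20 and 3 with the block. The unblocked fits without number 2 or 3 left 9 and 5 listed genes and 2 and 2 members at an unadjusted p under 0.05. In these alternative fits the share of all tested genes at an unadjusted p under 0.05 was not computed. Nothing is therefore read from the counts of listed genes and members at that p. The causes were not tested.

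HMOX1, SLC7A11, GCLC, GCLM and NFE2L2 kept their direction in 18 of 18 alternatives, NQO1 in 17, TXNRD1 and SRXN1 in 15 and KEAP1 in 14. The alternatives reuse the same 6 libraries or parts of them, on which the members were chosen, so a kept direction is no separate support. NFE2L2 kept its direction at a log2 fold change of only 0.03. HMOX1 ranged from -0.57 to -0.40 and SLC7A11 from -1.06 to -0.63 on the log2 scale. With 3 libraries per group, the 95% intervals without the block ran from -0.28 to 0.59 for NQO1 and from -0.39 to 0.52 for TXNRD1.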

Other observations

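Genes around HMOX1 in heme metabolism that were on the lists but not called in either fit were looked at after their values were seen. HMOX2, the constitutive heme oxygenase, had 32.3 ± 3.83 CPM with control siRNA and 33.4 ± 2.55 CPM with INO80 siRNA (SD, n = 3 each). Its fitted log2 difference was 0.05 (95% interval -0.19 to 0.29, adjusted p = 0.867, edgeR). The repressor BACH1 had a log2 fold change of 0.06 (95% interval -0.09 to 0.22, adjusted p = 0.700, edgeR). TFRC, the transferrin receptor, was at 824 ± 36.6 and 821 ± 57.0 CPM, and FTH1, the heavy chain of ferritin, at 471 ± 60.4 and 494 ± 61.5 CPM (SD, n = 3 each), with adjusted p of 0.982 and 0.816 (edgeR).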
